A study of Mus musculus with 56 samples.

Results

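Both cortical pieces of each of 9 newborn mice from a pair of microglial TRAP lines were compared, left against right. TRAP, translating ribosome affinity purification, pulls down eGFP-tagged ribosomes from the cells that carry the tag and sequences the RNA on them (bound). The rest of the lysate was sequenced too (unbound). The members were the 18 bound libraries of these lines out of 56 libraries in the series, chosen by the letter in the library name: L is the left and R the right piece, and the mouse number pairs them. The right whiskers were cauterised, so L lies opposite the lesion. The 18 unbound libraries of the same pieces served as a check.

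The heterozygous line (Cx3cr1CreErt2/+(Litt) Eef1a1LSL.eGFPL10a/+, mice 14, 15, 17 and 21) carried 1 copy of the inducible Cre in the fractalkine receptor gene. In the knockout line (Cx3cr1CreErt2/CreErt2(Litt) Eef1a1LSL.eGFPL10a/+, mice 7, 12, 18, 19 and 22) both copies of that gene were replaced by the Cre. Every mouse also carried 1 copy of the Cre-dependent eGFP-L10a ribosome tag, received 50 µg of tamoxifen by mouth daily from postnatal day 1 to 3, had its right whiskers cauterised on day 4 and gave barrel cortex on day 5, 24 h later. No unlesioned mouse is among these samples, so each mouse was its own control. The mouse numbers make the 9 pairs separate animals. Of the pairs, 6 were from females and 3 from males. The heterozygous samples were labelled total RNA and the knockout samples polyA RNA, and each line has its own count table, so line, table and RNA type cannot be told apart. The titles go against the letter for 1 library of mouse 17 and 1 of mouse 21 in each fraction: 17R is titled deprived and 21L control. The letter was followed here.

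As background, the whiskers on 1 side of the face reach the opposite barrel cortex through the thalamus, and cutting or burning them in the first days of life removes input during the period when barrels form. Microglia are the resident macrophages of the brain and carry the receptor CX3CR1, whose ligand, fractalkine (Cx3cl1), is made by neurons. CX3CR1 also marks macrophages at the brain's borders.

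Library totals lay between 35.8 M and 53.9 M counts in bound RNA and between 32.8 M and 56.7 M counts in unbound RNA. Cx3cr1 itself separated the lines in bound RNA, at 7.02 to 13.3 CPM (counts scaled to library size) in the heterozygous libraries and 0.363 to 1.37 CPM in the knockout libraries. The summed level of 28 homeostatic microglia markers was 282 to 804 CPM in bound RNA and 108 to 138 CPM in unbound RNA, ranges that did not overlap. The bound RNA also held neuronal RNA: 11 neuron markers summed to 9059 to 13489 CPM there and to 7170 to 8614 CPM in unbound RNA. Members differed: Nefm had a mean log2 CPM of 10.3 in bound and 6.92 in unbound RNA, while Snap25 had 9.97 and 10.7. Mitochondrial ribosomal RNA made up 1.41 to 3.53% of the bound and 20.5 to 31.1% of the unbound counts. Its part in the CPM of other genes was not tested. In bulk RNA, fewer cells of a type and less RNA per cell cannot be told apart.

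The pooled comparison asked whether the cortex opposite the lesion differed from the other cortex across all 9 mice. No gene passed the test in bound RNA (edgeR's quasi-likelihood test with mouse as a block and Benjamini-Hochberg adjustment; 0% of 19601 genes called, smallest adjusted p = 0.589). At an unadjusted p under 0.05 there were 1016 genes, 5.18% of those tested. DESeq2 called 2 genes, both lower in L, and limma-voom called 0. Unbound RNA gave 0% of 19278 genes called by edgeR, 578 genes (3%) at an unadjusted p under 0.05, 3 calls by DESeq2 (Mgp higher, Nefm and Prkch lower in L) and 0 by limma-voom. Directions that held in every pair were few: 40 genes (0.204%) were higher and 61 (0.311%) lower in L in all 9 bound pairs. In unbound RNA the counts were 33 (0.171%) and 21 (0.109%). No gene had the same sign in all pairs of both fractions among 18619 genes tested in both. Without mice 17 and 21, whose titles go against the letter, edgeR called 0 genes in bound (smallest adjusted p = 0.0504) and 3 in unbound RNA.

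The genes with the smallest p were small, even differences. Cend1, which encodes a protein of neuronal cell cycle exit and differentiation, had 70.6, 83.3 and 102 CPM (lowest, median, highest) in the 9 L libraries and 91, 103 and 115 CPM in the R libraries. Its L minus R difference was -0.33 ± 0.058 on the log2 scale (SE, n = 9 pairs) and was negative in all 9 pairs. Grm4, a metabotropic glutamate receptor, had 9.93, 11.2 and 16.3 CPM in L and 11.7, 15.2 and 19.3 CPM in R, a difference of -0.34 ± 0.061, again negative in all 9 pairs. These are the genes called by DESeq2, with adjusted p of 0.00661 and 0.0317, against 0.589 for both in edgeR's quasi-likelihood test.

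In unbound RNA Cend1 differed by -0.03 ± 0.08 and Grm4 by -0.15 ± 0.06. Whether bound and unbound differences differ was tested for every gene and none passed (0% of 20676 genes by edgeR, 1067 at an unadjusted p under 0.05, and 0 by DESeq2). Among the other genes of smallest p in bound RNA, Polr1c, a subunit of RNA polymerases I and III, was at 0.28 ± 0.059, and Hepacam, an adhesion protein of glia, at -0.26 ± 0.064. In unbound RNA Polr1c was at -0.05 ± 0.066 and Hepacam at 0.00 ± 0.062. Rnf213, an interferon-inducible ubiquitin ligase, had similar differences in both fractions, 0.30 ± 0.076 bound and 0.27 ± 0.074 unbound. So did Kitl, the ligand of the receptor KIT, at -0.41 ± 0.10 and -0.34 ± 0.096. None of these passed (edgeR's adjusted p of at least 0.954 in bound RNA). In unbound RNA Nefm, the medium neurofilament subunit, had the smallest p, with -0.32 ± 0.068 and an edgeR adjusted p of 1.00.

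The knockout line was next taken alone. In bound RNA 2 of 18324 genes (0.0109%) passed, both lower in L: Tcf7l2 and Dgkk. In unbound RNA 3 of 18421 (0.0163%) passed, all lower in L: Tcf7l2, Id4 and Rbms3. DESeq2 called 36 genes in bound and 62 in unbound RNA, of which 31 and 59 were lower in L.

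Tcf7l2, at 19:55741820-55933654 on the plus strand of GRCm38, encodes a transcription factor of the Wnt pathway that is also a marker of thalamic neurons. Its bound levels in the left pieces of mice 7, 12, 18, 19 and 22 were 12.6, 13.1, 16.3, 14.5 and 15.3 CPM. The right pieces of the same mice had 99.4, 173, 121, 91.8 and 25.2 CPM. All 5 right libraries lay above all 5 left libraries, with mouse 22 closest. The L minus R difference was -2.63 ± 0.32 (edgeR's quasi-likelihood test, adjusted p = 0.0397), and in unbound RNA it was -2.69 ± 0.29 (adjusted p = 0.00989). In the heterozygous line the bound levels were 15.7, 15.9, 19.5 and 18.8 CPM in L and 16.7, 11.7, 16.3 and 16.6 CPM in R, so the right pieces of knockout mice 7, 12, 18 and 19 were the highest libraries, that of mouse 22 came next, and the heterozygous sides overlapped.

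Dgkk, diacylglycerol kinase kappa (X:6779306-6948363), had 23.4, 23.3, 37.7, 28.2 and 27.7 CPM in the left pieces of the knockout line, in the same order of mice, and 43.6, 40.3, 68.6, 43.2 and 38.0 CPM in the right pieces. Left was lower in each mouse, by 0.72 ± 0.084 on the log2 scale (edgeR's adjusted p = 0.0397). In the heterozygous line Dgkk went the other way: mice 14, 15, 17 and 21 had 41.4, 53.8, 35.4 and 28.1 CPM in L and 23.1, 36.9, 31.4 and 20.7 CPM in R.

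Id4, which encodes an inhibitor of basic helix-loop-helix factors (13:48261228-48266026), had 52.4, 51.7, 68.1, 61.0 and 61.5 CPM in the unbound left pieces of the knockout mice and 92.8, 95.0, 121, 86.0 and 87.5 CPM in the right pieces. The 2 sides did not overlap, and the difference was -0.71 ± 0.065 (edgeR's adjusted p = 0.0032). Its exons overlap those of genes on the other strand, and the counting's strand setting is not given in the sources used here. Rbms3, an RNA-binding protein (9:116572746-117629913), had 58.1, 62.7, 67.9, 67.5 and 67.9 CPM in the unbound left pieces and 86.8, 97.9, 104, 91.7 and 79.4 CPM in the right pieces, a difference of -0.50 ± 0.063 (edgeR's adjusted p = 0.024). Id4 and Rbms3 did not pass in bound RNA, with -0.65 ± 0.099 and -0.45 ± 0.075. The plot of these levels shows the pairs.

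**Figure D1:**
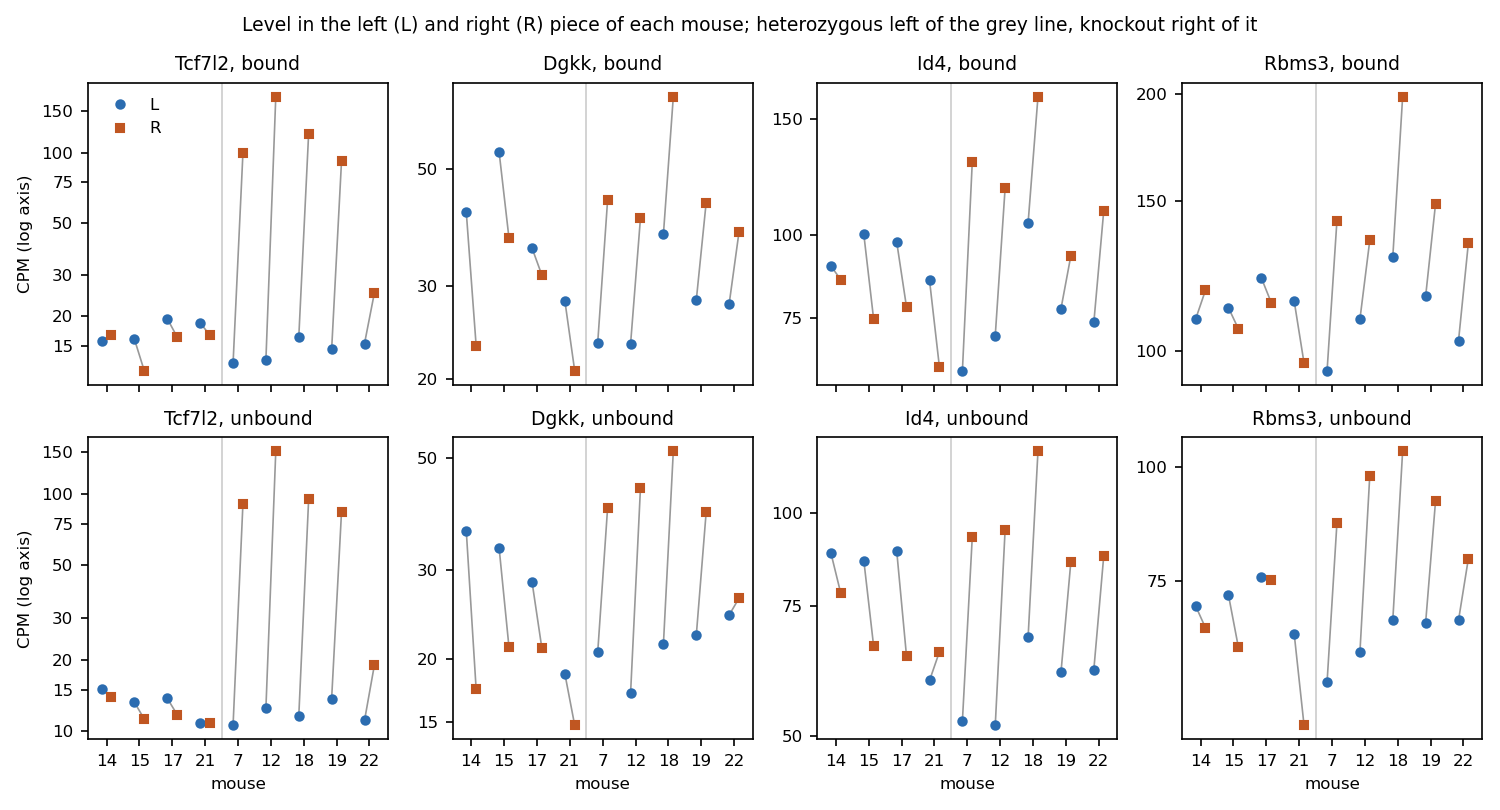
CPM (log axis) of Tcf7l2, Dgkk, Id4 and Rbms3 in the left (circle) and right (square) piece of each mouse, joined by a line, bound libraries above and unbound below. In the knockout mice the right library is the higher one in every pair, and for Tcf7l2 bound it reaches 173 CPM against 25.2 CPM in mouse 22.

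Because TCF7L2 binds DNA at a short core, the 250 bases before the annotated start of the 3 genes lower in L in unbound RNA are shown, 5′ to 3′ on the gene's strand, from RefSeq on GRCm38.p6. Capitals mark CTTTGA or its reverse complement, TCAAAG. Of 32851 such windows, 13.8% hold it on either strand. The windows of Tcf7l2 and Id4 hold no match and that of Rbms3 holds 1. A match is a description of letters and not a site. Positions are 19:55741560-55741809 (plus) for Tcf7l2, 13:48260866-48261115 (plus) for Id4 and 9:117629914-117630163 (minus) for Rbms3. Tcf7l2 and Rbms3 each have another annotated start, not shown, whose window holds 0 matches.
Tcf7l2: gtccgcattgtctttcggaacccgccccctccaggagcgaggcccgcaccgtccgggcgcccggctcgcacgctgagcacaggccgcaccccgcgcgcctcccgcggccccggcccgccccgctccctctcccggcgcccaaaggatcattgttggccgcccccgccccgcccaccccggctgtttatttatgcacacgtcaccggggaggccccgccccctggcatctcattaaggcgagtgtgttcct
Id4: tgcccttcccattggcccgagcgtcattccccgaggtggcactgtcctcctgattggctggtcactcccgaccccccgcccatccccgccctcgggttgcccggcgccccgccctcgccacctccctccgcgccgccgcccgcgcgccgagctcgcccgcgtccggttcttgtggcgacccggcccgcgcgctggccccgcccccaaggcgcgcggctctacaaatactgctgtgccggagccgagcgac
Rbms3: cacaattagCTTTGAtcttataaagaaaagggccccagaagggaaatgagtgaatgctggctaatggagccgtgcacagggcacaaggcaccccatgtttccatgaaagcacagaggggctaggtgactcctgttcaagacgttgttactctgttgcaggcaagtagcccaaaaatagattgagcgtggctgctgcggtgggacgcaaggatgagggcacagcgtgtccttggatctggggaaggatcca

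The count of knockout calls rested on few mice. Bound calls numbered 0 without mouse 7, 12 or 19 and 6 without mouse 18 or 22, and unbound calls 0 without mouse 7, 1 without mouse 12, 2 without mouse 19, 3 without mouse 18 and 27 without mouse 22. Without the mouse block edgeR called 1 gene in bound and 7 in unbound RNA.

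The heterozygous line alone gave no call by edgeR in bound (0% of 18001 genes, 1232 at an unadjusted p under 0.05) or unbound RNA (0% of 18073, 1078 at an unadjusted p under 0.05). DESeq2 called 6 genes in each fraction, all higher in L. In bound RNA these were Oasl2, Col25a1, Ddx60, Penk, Ifi44 and Camk2d, and in unbound RNA Zfhx3, Dgkk, Hap1, Oasl2, Penk and H19. Oasl2, Ddx60 and Ifi44 are interferon-induced genes, and Penk encodes the enkephalin precursor.

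Oasl2 had 174, 213, 295 and 238 CPM in the bound left pieces of mice 14, 15, 17 and 21 and 105, 152, 248 and 142 CPM in the right pieces. Left was higher in all 4 mice, by 0.55 ± 0.10 (edgeR's adjusted p = 0.724). In the knockout mice 7, 12, 18, 19 and 22 the left pieces had 108, 118, 103, 106 and 94.0 CPM and the right pieces 112, 135, 71.7, 105 and 84.6 CPM, with no common direction. Oasl2 was also lower in all knockout libraries than in all but 1 of the heterozygous libraries, a difference of level that line, table and RNA type share.

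The interferon response list of 20 genes showed the same layout. In the heterozygous line all 20 had a positive bound difference, with a median of 0.31, 11 of them at an unadjusted p under 0.05 (6.84% of all genes were) and none passing the adjusted threshold. The median over all genes tested was 0.00. Of the 20, 9 were higher in L in all 4 mice, where 7.18% of all genes were. In unbound RNA 19 of 20 were positive, with a median of 0.37. In the knockout line 8 were positive and 12 negative in bound RNA, with a median of -0.04. Per mouse, the bound medians were 0.49, 0.52, 0.13 and 0.34 in mice 14, 15, 17 and 21, and -0.07, -0.16, -0.07, 0.06 and 0.19 in mice 7, 12, 18, 19 and 22. The unbound medians were 0.16, 0.39, 0.12 and 0.51 in the same heterozygous mice. In the same knockout mice they were -0.14, -0.29, 0.26, 0.03 and 0.07, so mouse 18 lay above mice 14 and 17. No member passed the test of the difference between lines.

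**Figure D2:**
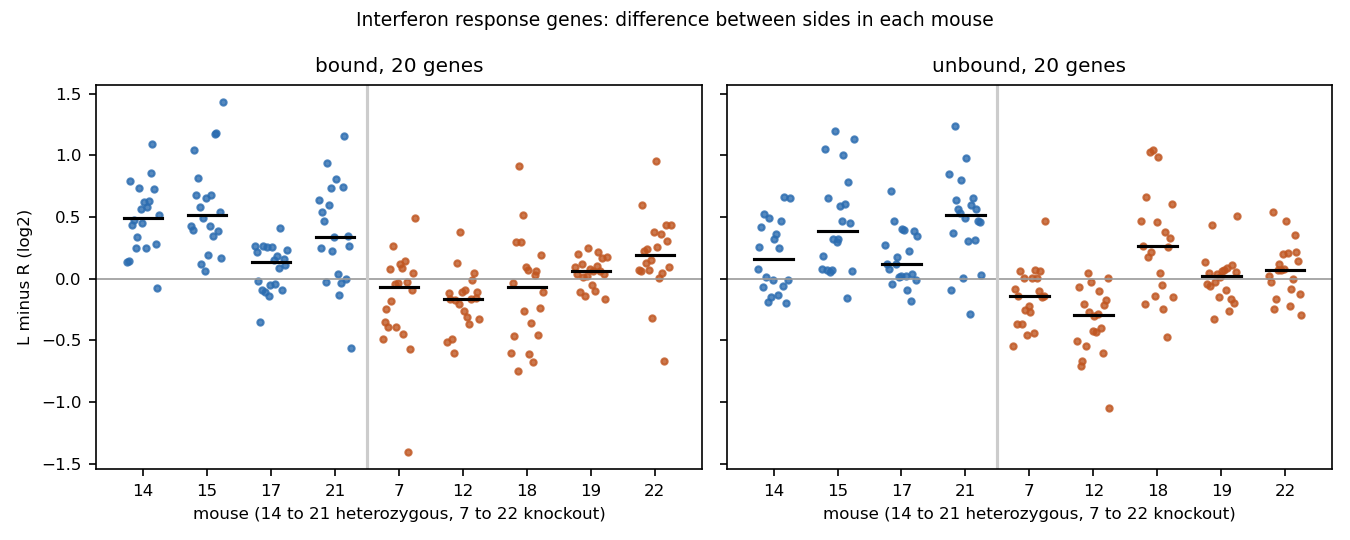
L minus R difference (log2) of each of the 20 interferon response genes in each mouse, bound left and unbound right, with the median as a bar. In bound RNA the medians of the 4 heterozygous mice lie between 0.13 and 0.52 and those of the 5 knockout mice between -0.16 and 0.19.

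The difference between the lines in their L minus R contrast was then tested directly. In bound RNA 4 of 19601 genes (0.0204%) passed, all with a lower contrast in the knockout line: Oprk1, Dgkk, Id4 and Tcf7l2. In unbound RNA 5 of 19278 (0.0259%) passed, in the same direction: Id4, Dgkk, Zfhx3, Tcf7l2 and Rbms3. The contrasts of the 2 lines were correlated across genes with a mean log2 CPM of at least 3. Pearson's r was -0.17 (Spearman's rho -0.12) over 9617 genes in bound RNA and -0.43 (-0.41) over 8992 in unbound RNA. Mouse by mouse the sign was mixed: of the 20 pairings of a heterozygous with a knockout mouse, r was positive in 11 and negative in 9 in bound RNA, from -0.56 (mice 14 and 18) to 0.34 (mice 21 and 12), and positive in 7 in unbound RNA. Genes of 1 sample are not independent, and the 2 lines share no library. The same sign was seen for 46.4% of bound and 33.5% of unbound genes.

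Oprk1, the kappa-opioid receptor (1:5588466-5606131), had 4.84, 5.85, 4.61 and 3.62 CPM in the bound left pieces of mice 14, 15, 17 and 21 and 3.30, 2.85, 2.27 and 2.25 CPM in the right pieces. In the knockout mice the left pieces had 3.40, 2.30, 4.09, 2.29 and 2.59 CPM and the right pieces 6.42, 5.2, 7.51, 6.58 and 4.46 CPM. All 4 heterozygous pairs were higher in L and all 5 knockout pairs higher in R, a line difference of -1.88 ± 0.21 (edgeR's quasi-likelihood test, adjusted p = 0.00398). Dgkk differed between lines by -1.22 ± 0.14 (edgeR's adjusted p = 0.00398) in bound and -1.52 ± 0.21 (0.0293) in unbound RNA. Id4 differed by -0.97 ± 0.14 (edgeR's adjusted p = 0.043) and Tcf7l2 by -2.83 ± 0.42 (0.043) in bound RNA. Zfhx3, a homeobox transcription factor (8:107942644-108961630), differed by -1.79 ± 0.25 in unbound RNA (edgeR's adjusted p = 0.0293), and Rbms3 by -0.65 ± 0.097 (0.0373).

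Bound calls were 2 without any 1 of mice 14, 15, 21, 7, 12 or 18, 3 without 17 or 19 and 6 without 22. Unbound calls were 0 without any 1 of mice 14, 15, 7, 12 or 18, 1 without 21, 3 without 19, 11 without 17 and 12 without 22. The scatter of the 2 lines holds genes with a mean log2 CPM of at least 3, which leaves out Oprk1, at 2.06.

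**Figure D3:**
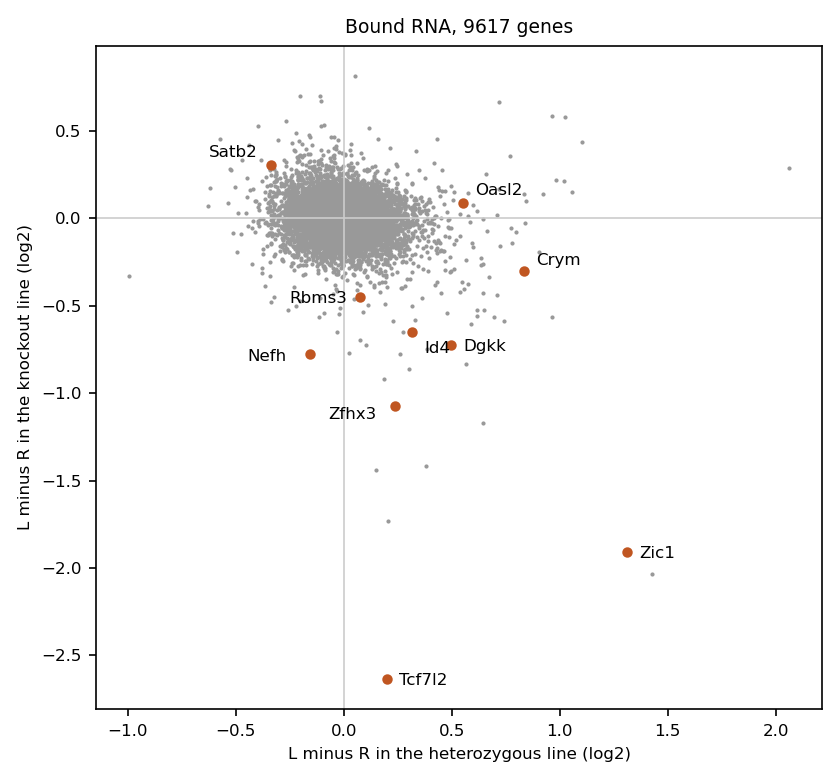
L minus R difference (log2) of 9617 genes in bound RNA, heterozygous line on the horizontal and knockout line on the vertical axis, 1 point a gene. Only genes with a mean log2 CPM of at least 3 are shown. Tcf7l2 lies near 0 in the heterozygous line and at -2.63 in the knockout line, and Zic1 at 1.31 and -1.91.

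Thalamic neuron markers also differed in sign between the lines, though not in every mouse. The 13 thalamic neuron markers, a list that holds Tcf7l2, had 12 members lower in L in the knockout line, 11 of them at an unadjusted p under 0.05 (5.42% of all genes were), with a bound median of -0.92. In the heterozygous line 11 of 12 tested were higher in L, with a median of 0.30. Their summed bound level was 236 to 564 CPM in the right knockout pieces, against 133 to 239 CPM in the left knockout pieces, 138 to 236 CPM in the left heterozygous pieces and 119 to 211 CPM in the right heterozygous pieces. No member was at 0 in all libraries of a group. By mouse, the bound medians were 0.50, 0.60, -0.12 and 0.06 in the heterozygous line and -1.30, -1.03, -1.67, -0.53 and 0.00 in mice 7, 12, 18, 19 and 22. Zic1, a zinc finger factor of developing thalamus, had 40.5, 42.2, 48.7 and 9.50 CPM in L and 12.6, 6.39, 27.6 and 9.14 CPM in R of the heterozygous line. In the knockout line it had 6.40, 13, 12.4, 51.9 and 36.7 CPM in L and 38.2, 108, 106, 72.4 and 49.1 CPM in R. Zic1 passed no test (edgeR's adjusted p = 0.306 in the knockout line). The part of thalamic tissue in the called genes was not tested.

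The striatal neuron, choroid plexus and border macrophage lists varied by mouse as well. All 14 striatal neuron markers were negative in the knockout line, with a median of -0.52, and 7 were lower in L in all 5 knockout mice, where 3.96% of all genes were. In the heterozygous line 9 were positive and 5 negative, and the bound medians split by mouse, at -0.45, -0.18, 0.36 and 0.55 in mice 14, 15, 17 and 21. The choroid plexus list, 7 genes led by Ttr, which encodes transthyretin, had a bound median of 0.54 in heterozygous mice and -1.12 in knockout mice. Ttr was at 535, 328, 545 and 0.26 CPM in L and 568, 0.178, 414 and 65.5 CPM in R of mice 14, 15, 17 and 21. It was at 0.705, 86.4, 590, 481 and 488 CPM in L and 631, 900, 642, 526 and 569 CPM in R of mice 7, 12, 18, 19 and 22. The 9 border macrophage markers tested were all positive in the heterozygous line, with a median of 1.01, and 7 of 9 in the knockout line, with a median of 0.54. By mouse, their bound medians were 0.64, 3.74, 0.24 and 0.08 in mice 14, 15, 17 and 21, so mouse 15 stood far above the other heterozygous mice. In unbound RNA mice 17 and 21 were at -0.19 and -0.17, and 0 of 9 members were higher in L in all 4 heterozygous mice. None of these genes passed edgeR's test. Their part in the differences above was not tested.

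**Figure D4:**
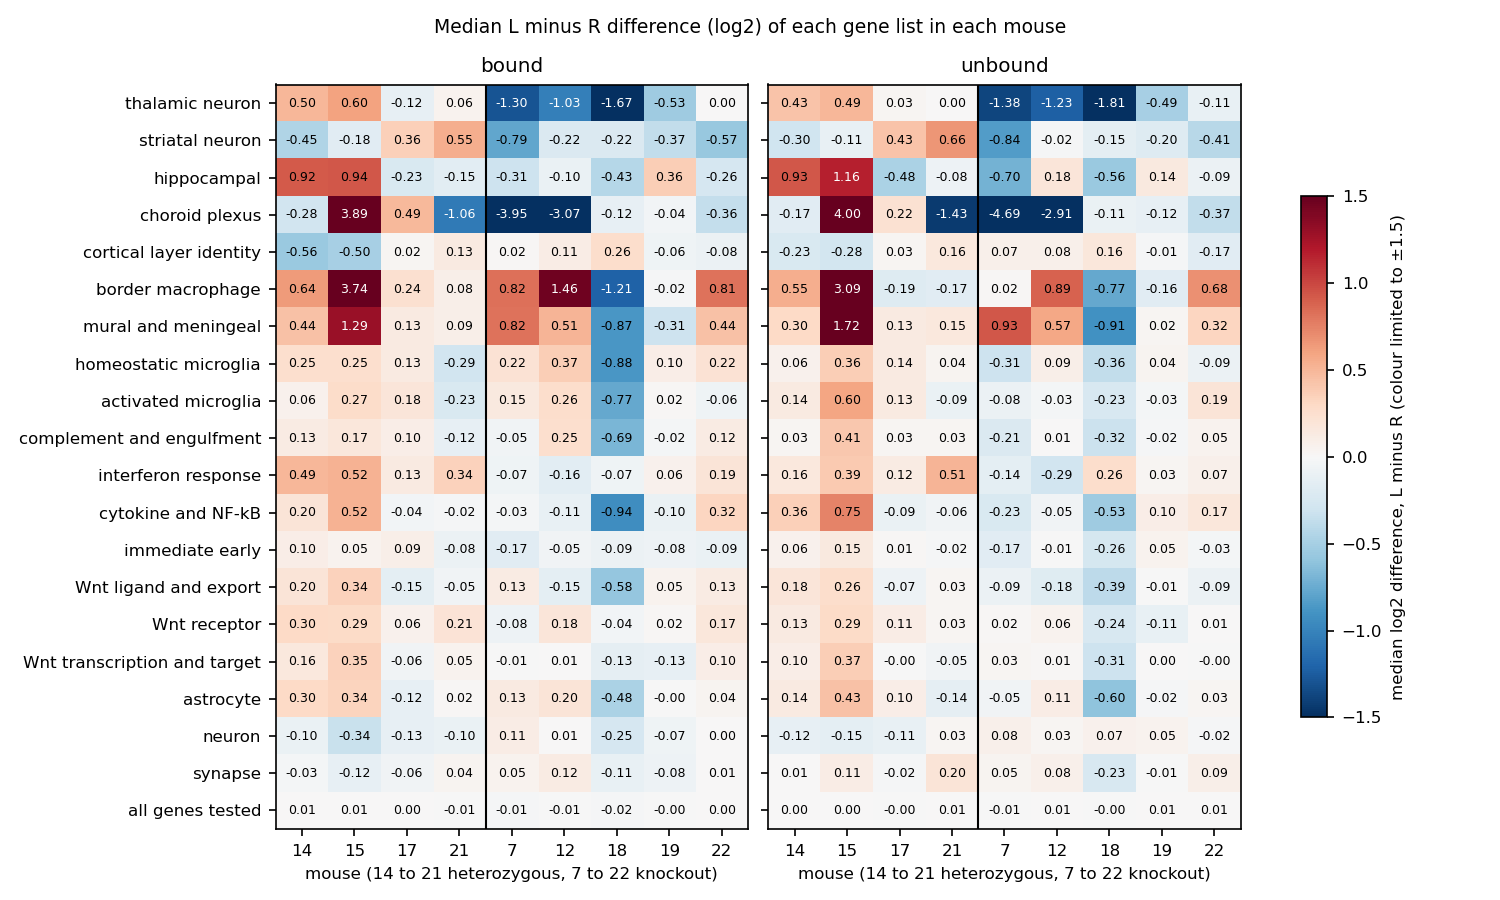
Median L minus R difference (log2) of 19 gene lists and of all genes tested in each mouse, bound left and unbound right, as coloured cells with the value printed. The thalamic medians of mice 7, 12 and 18 lie at -1.30, -1.03 and -1.67, while the medians over all genes lie between -0.02 and 0.01.

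Microglial genes themselves showed small pooled differences, and their sign was not shared by all mice. Of the 28 homeostatic microglia markers 22 were positive and 6 negative in the pooled bound comparison, where 49.3% of all genes were positive. Their median was 0.06, and none was at an unadjusted p under 0.05. Per mouse the medians were 0.25, 0.25, 0.13 and -0.29 in mice 14, 15, 17 and 21, and 0.22, 0.37, -0.88, 0.10 and 0.22 in mice 7, 12, 18, 19 and 22, so mouse 18 lay far below. Lists of other cell types were also low in mouse 18, with bound medians of -1.21 for border macrophage, -0.87 for mural and meningeal, -0.48 for astrocyte and -0.42 for endothelial markers. In mouse 18 the right piece had the highest mitochondrial ribosomal RNA share of the bound libraries, 3.53%, whose part in these values was not tested. P2ry12, the purinergic receptor of resting microglia, had 6.43, 19.6 and 25 CPM (lowest, median, highest) in L and 4.87, 17.1 and 26.3 CPM in R, a difference of 0.14 ± 0.15. Csf1r, the receptor that microglia need to survive, had 15.5, 34.1 and 49.8 CPM in L and 13.3, 32.2 and 39.6 CPM in R, a difference of 0.10 ± 0.13. Tmem119 differed by 0.15 ± 0.15 and Aif1 by 0.22 ± 0.11. The complement genes C1qa and C3 differed by -0.12 ± 0.14 and 0.22 ± 0.25. None of these passed edgeR's test.

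Fractalkine signalling and the immediate early genes gave mostly small differences in the pooled bound comparison. Cx3cl1 had 11.5, 20.1 and 24.2 CPM in L and 16.2, 18.9 and 21.8 CPM in R, a difference of 0.00 ± 0.079. Adam10, a protease that sheds fractalkine, differed by 0.11 ± 0.046 (0.02 ± 0.053 in unbound RNA). The immediate early genes, which neurons switch on with activity, had 11 positive and 16 negative members of 27, with a median of -0.05. Of them, 5 were at an unadjusted p under 0.05 (5.18% of all genes were). Arc was at 4.55 CPM in L and 5.50 CPM in R (medians), a difference of -0.34 ± 0.11 that was negative in 8 of 9 mice. Egr1 differed by -0.17 ± 0.073 and Fos by 0.00 ± 0.12. Fosb, at a low mean log2 CPM of -1.14, went the other way from Arc, at 0.74 ± 0.30. Of the Wnt genes, 14 of 17 receptors were positive, where 49.3% of all genes were, with a median of 0.11. By mouse, the receptor medians were negative in mice 7 and 18 (-0.08 and -0.04) and positive in the others. In unbound RNA they were negative in mice 18 and 19 (-0.24 and -0.11) and positive in the others. Bound Wnt5a, Wnt7a, Wnt7b and Axin2 differed by 0.12 ± 0.11, -0.05 ± 0.094, 0.03 ± 0.092 and 0.03 ± 0.059.

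How alike the mice were was described by the correlation of their bound L minus R differences. It was taken across the 9620 genes with a mean log2 CPM of at least 3. Mice 14 and 15 had r = 0.56, mice 7 and 12 had 0.35, and mouse 18 was opposed to mice 14 and 15 (-0.56 and -0.48). The other pairs of mice lay between -0.30 and 0.34. Genes share the library, so these are descriptions. The number of genes over 2-fold differed as widely, from 2 in mouse 17 to 183 in mouse 18. Crym, a gene of cortical layers, was at 73.6, 93.5, 50.6 and 12.2 CPM in L and 15.7, 19.7, 64.2 and 21.7 CPM in R of mice 14, 15, 17 and 21, and Il16 at 13.7, 14.1, 12.2 and 1.56 CPM in L and 2.72, 3.62, 15.7 and 3.48 CPM in R. For both genes mouse 17 was high on both sides. In mouse 21 the left piece was the lowest of the left pieces, and the right piece was near those of mice 14 and 15. Other genes did not share this layout: bound Oprk1 and Oasl2 were higher in L in mice 14, 15, 17 and 21 alike. In the knockout line bound Crym differed by -0.30 ± 0.33 and bound Il16 by -0.16 ± 0.33.

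**Figure D5:**
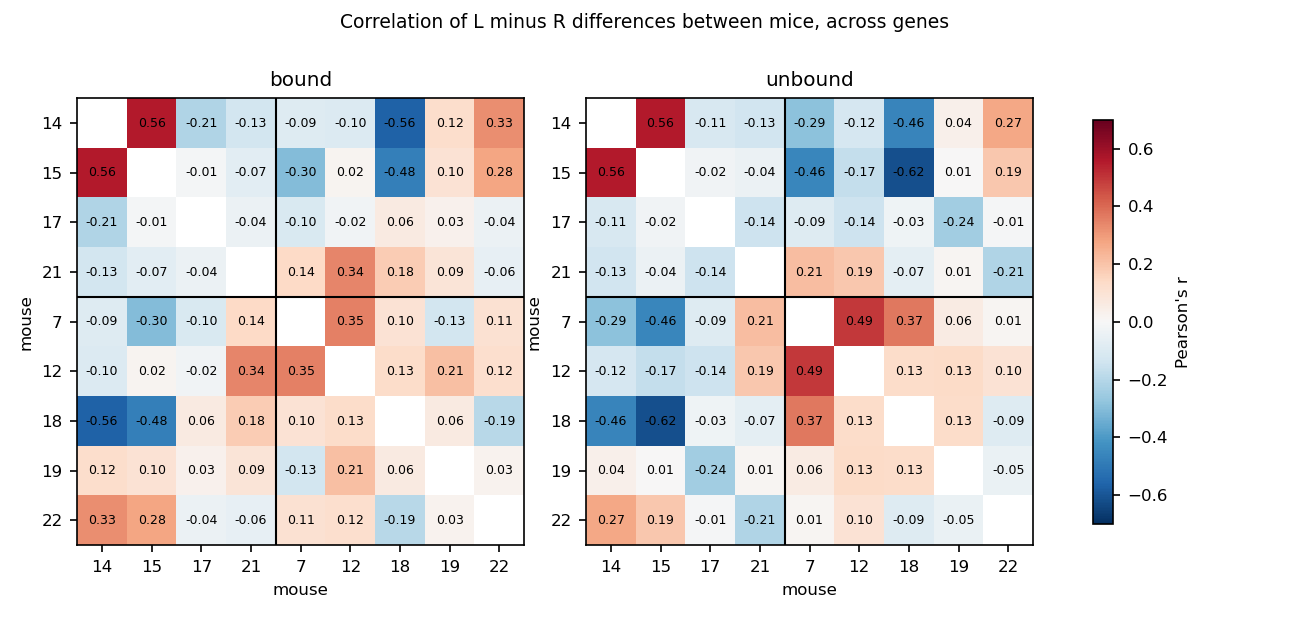
Pearson's r between mice of the L minus R difference across 9620 genes, bound left and unbound right, with the value printed in each cell. Only genes with a mean log2 CPM of at least 3 enter. Mice 14 and 15 stand at 0.56 in both fractions and mouse 18 at -0.56 with mouse 14 in bound RNA.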

How the data were processed

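Bound and unbound libraries of the microglial lines were used, 4 heterozygous and 5 knockout mice with 1 left and 1 right piece each. The authors deposited whole-number counts per gene in 1 table a line. The tools named in the submitters' processing notes are HISAT2 2.2.0, featureCounts 2.0.0, cutadapt 2.9, Trim Galore 0.6.4 and FastQC 0.11.9; the builds named there are mm10 and GRCm38. Library names give side and mouse. The tables were joined on 45681 shared gene IDs and genes in only 1 table were left out.

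From the counts, CPM and log2 differences (prior count 2) were computed. The main test was edgeR 4.0.16 (R 4.3.3) quasi-likelihood with TMM factors, filterByExpr, mouse as a block and Benjamini-Hochberg adjustment over all genes tested, at a threshold of 0.05. SE is the size of the log2 difference over the square root of F. DESeq2 1.42.0 and limma-voom (limma 3.58.1), RLE factors, no filter, no replicate block and leaving out mice were alternatives. A filter at a mean log2 CPM of at least 1 was added after seeing the data. The scripts were tested on simulated data. Where fewer than 20 genes passed the pooled tests, named genes are those that passed and, per direction, the 10 of smallest p with a mean log2 CPM of at least 1, plus all calls of the within-line and between-line fits, the 2 members of smallest p of each list and a fixed set. Genes named outside that rule (Ttr, those called by DESeq2 alone) were chosen after their values were seen. Members and lists were chosen with earlier results of these data known. The L and R libraries of a mouse carry 1 mouse number, and their deviations correlated above 0.1 in 9 of 9 mice in both fractions. That bar is low, since r with a piece of another mouse reached 0.54 (mouse 22, unbound). L correlated best with its own R in 8 of 9 mice in bound and 7 of 9 in unbound RNA. The exceptions were mouse 18 in bound and mice 21 and 22 in unbound RNA. Exons of 36 of 121 named genes overlap those of another gene, 29 of them on the other strand, and their counts are uncertain if strand was not used. In the report these are Id4, Zic1, Nefm, Rnf213, Cx3cr1, Csf1r, P2ry12, Il16, Axin2, Wnt5a, Wnt7b and Dsp.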

Additional observations from a re-analysis of the deposited data

Results flagged for a closer look

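Over the 9 bound L minus R differences of 121 named genes, 11 had 1 mouse far from the others by Dixon's test. For 1 gene taken alone chance gives about 1 in 20. That rate does not apply to the set, since the genes share the same 9 mice and many were chosen from these data. Mouse 15 stood apart for Dcn (4.84 on the log2 scale), Itm2a (1.39), Dsp (0.79) and Nacad (-0.60). Mouse 18 stood apart for C3 (-1.89), P2ry12 (-1.22) and Grk3 (0.60). Mouse 17 stood apart for Dlx5 (0.44) and Npy (0.35), mouse 22 for Trib3 (0.83) and mouse 19 for Wnt7a (0.61). The other mice stood apart for none of these genes.

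The L minus R difference differed between the lines, by edgeR's test of the interaction, for Oprk1 (-1.88, knockout minus heterozygous), Dgkk (-1.22), Id4 (-0.97) and Tcf7l2 (-2.83) in bound RNA. In unbound RNA it differed for Id4 (-0.94), Dgkk (-1.52), Zfhx3 (-1.79), Tcf7l2 (-2.82) and Rbms3 (-0.65). Line coincides with the count table and the labelled RNA type.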

How the results depend on the processing

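Counts of calls moved most without the filter on low counts, to 118 (pooled bound), 102 (pooled unbound), 270 and 227 (bound, heterozygous and knockout), 297 and 420 (unbound), 405 and 698 (line difference, bound and unbound) and 27 (fraction difference). In those fits edgeR's prior degrees of freedom were infinite, against 6.19 to 11.9 with the filter. DESeq2 called 2, 3, 6, 36, 6, 62, 25, 71 and 0 genes for pooled bound, pooled unbound, bound heterozygous, bound knockout, unbound heterozygous, unbound knockout, bound and unbound line difference and fraction difference. Without the replicate block, the pairing by mouse being left out, calls were 1 in bound and 7 in unbound knockout RNA, and 0 in the pooled and heterozygous fits. Without mice 17 and 21 the pooled unbound count was 3. Leaving out 1 mouse gave 0 to 2 calls for pooled unbound, 0 to 6 for bound knockout, 0 to 27 for unbound knockout, 2 to 6 for the bound and 0 to 12 for the unbound line difference and 0 to 1 for the fraction difference. RLE factors and the added filter kept every count within 1.5 times. Under alternatives, 79 of 2056 bound values of 121 named genes changed sign, spread over 23 genes. Of 2040 unbound values of 120 named genes 157 did, spread over 54 genes. The pooled main fits called no gene, while 25 bound and 23 unbound values of named genes passed under an alternative. Dgkk, called within the knockout line, turned from -0.19 to 0.02 in bound and from -0.23 to 0.03 in unbound RNA without mice 7 and 18, as did Oprk1 in unbound RNA (-0.22 to 0.01). The cause of these and the other shifts was not tested.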
